A study of Mus musculus with 6 samples.

Results

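Integrins and laminins were examined in the laser-captured lacrimal gland epithelium of E14.5 mouse embryos, as the set of gene symbols in the count tables that name an integrin alpha or beta subunit or a laminin alpha, beta or gamma chain. The family was chosen with earlier results of these data known, and within it membership went by symbol. This gave 37 of 23420 genes, and 30 of them were among the 13087 genes expressed well enough to be tested. The RNA-seq compared 3 Control samples, which carried the Le-Cre transgene only, with 3 Pea3 TKO samples, and asked which genes depend on the Pea3 family of ETS transcription factors in the gland bud. The Pea3 TKO samples combined Le-cre with the null genotype Pea3-/- and with the conditional alleles Ermfl/fl and Er81fl/fl, so that Etv4 (Pea3) was lost in the whole embryo and Etv5 (Erm) and Etv1 (Er81) where Cre acted. Le-Cre is active in conjunctiva and gland epithelium and was present in both groups, and all samples were of mixed background. The labels do not tie samples to embryos, so the p-values measure the spread between these samples, which may be partly technical.

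Integrins are cell surface receptors built of an alpha and a beta subunit, which join extracellular matrix outside the cell to the actin or keratin cytoskeleton inside it. Laminins are trimers of an alpha, a beta and a gamma chain and form the network on which a basement membrane is built. In branching glands the epithelial bud rests on such a basement membrane, and the choice of subunits decides which ligands a cell can bind.

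The libraries held between 14194775 and 17860140 counts, at which 3 counts corresponded to 0.169 to 0.21 counts per 1e+06 counts (CPM). All values below are CPM after TMM normalization as mean ± SD of n = 3 samples per group, and differences are log2 fold changes of Pea3 TKO over Control with their standard error (SE) from the edgeR quasi-likelihood test and a Benjamini-Hochberg adjusted p over all genes tested. A gene was called at an adjusted p under 0.05. The targeted genes followed their labels. Etv4 was at 184, 129 and 140 CPM in the Control samples and at 10.9, 19.1 and 28.4 CPM in Pea3 TKO, Etv5 at 961 to 1202 CPM against 88.2 to 177 CPM, and Etv1 at 28.7 to 33.9 CPM against 9.21 to 9.98 CPM.

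The captured tissue expressed the epithelial markers Epcam (1408 ± 88.2 CPM in Control and 1256 ± 73.4 CPM in Pea3 TKO) and Pax6 (210 ± 28.7 and 451 ± 31.5 CPM). Of the 8 listed markers of bud epithelium, Pax6, Cdh1, Krt8, Krt18 and Esrp1 rose, Sox9 and Sox10 fell and Epcam was not called, with Sox10 at 388 ± 6.42 CPM in Control and 71.9 ± 29.7 CPM in Pea3 TKO (adjusted p = 0.000223). Other marker lists differed in level between samples. The summed level of 8 markers of stratifying surface epithelium, led by Krt15 and Krt5, was 551 to 1621 CPM in Control and 5313 to 7541 CPM in Pea3 TKO, and 7 of the 8 rose. Among 12 mesenchyme markers Lum and Dcn rose, though both overlapped between the groups. In Pea3 TKO replicate 3 they were at 2.06 and 2.41 CPM, below Control replicate 3 (8.39 and 4.42 CPM). The summed level of the 12 was 237 to 301 CPM in Control and 273 to 849 CPM in Pea3 TKO. Foxc1 alone was at 184 to 229 CPM in Control and 259 to 279 CPM in Pea3 TKO. It made up most of the sum in every Control sample and in Pea3 TKO replicate 3. Col3a1 was at 119.5 and 213 CPM in Pea3 TKO replicates 1 and 2 and at 2.0 CPM in replicate 3. Pea3 TKO replicates 1 and 2 also had almost no Y-linked counts (0.445 and 0.21 CPM in sum) whereas the other 4 samples had 136 to 175 CPM, so embryo sex was partly confounded with genotype. The part of these differences in the results below was not tested except where a value is given, and fewer cells of a type and less RNA per cell cannot be told apart in such bulk samples.

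Of the 30 tested members, 5 rose and 9 fell in Pea3 TKO. The background over all genes tested was 13.6% higher and 11.3% lower, or 25.0% in either direction, so the members that rose were close to their background share and those that fell exceeded it. The groups did not overlap in 17 of the 30 tested members, against 43.9% of all genes tested. The median log2 fold change was -0.10 for the members and 0.01 for all genes tested. Among the 19 tested integrins, 2 were higher and 6 lower. The members together took 0.307% to 0.373% of the counts in Control and 0.23% to 0.266% in Pea3 TKO.

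**Figure D1:**
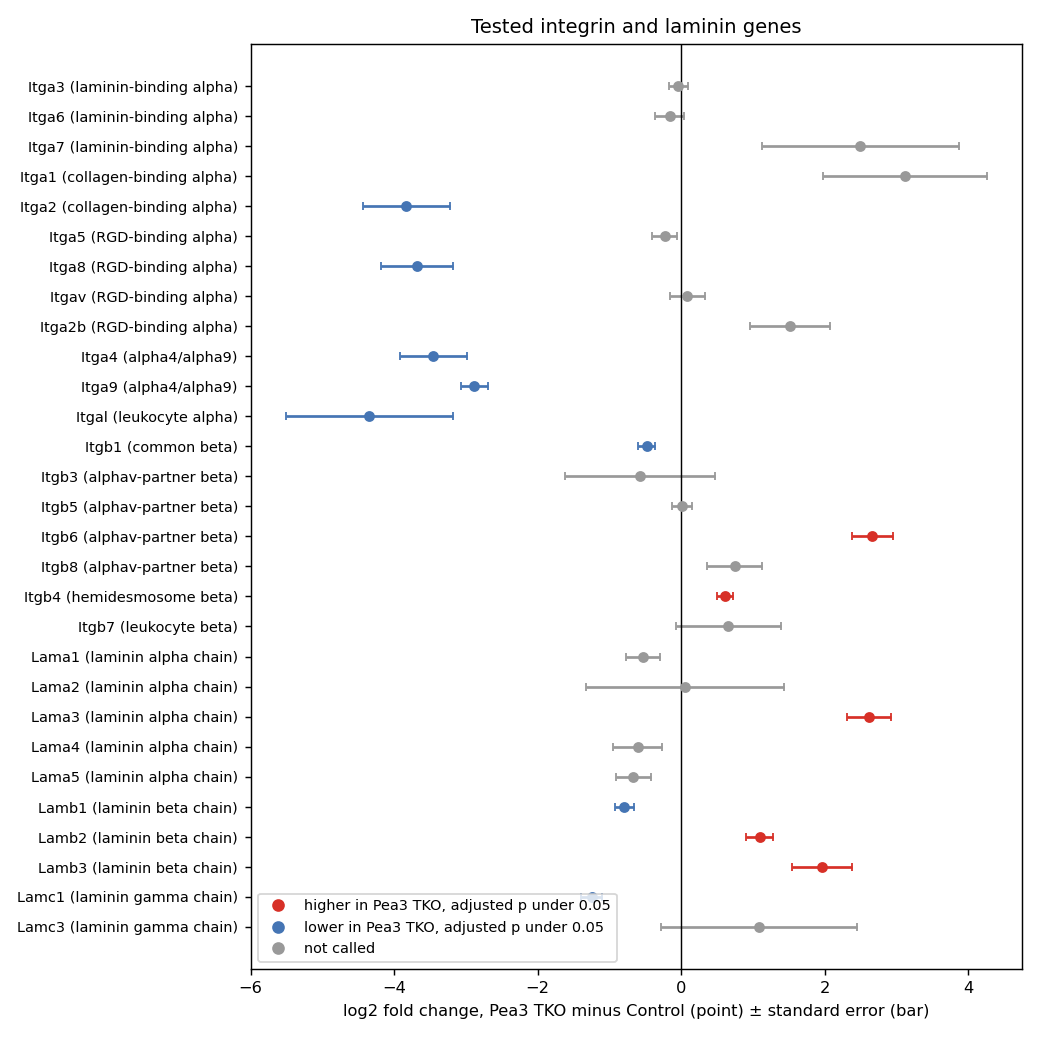
Log2 fold change of tested integrin and laminin genes (Pea3 TKO over Control, x axis, log2 units), grouped by ligand class or chain type, with bars of 1 SE from the edgeR quasi-likelihood test on 3 samples per group. Higher genes are red, lower genes blue and genes not called grey, and the lower ones run from -0.48 (Itgb1) to -4.35 (Itgal) while the 5 higher ones run from 0.61 (Itgb4) to 2.66 (Itgb6).

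The alpha4 and alpha9 subunits, which pair with beta1 and between them bind fibronectin, VCAM1, tenascin-C and other ligands, both fell. Itga9 (chr9:118606690-118901003, plus strand, GRCm38) was at 319, 343 and 465 CPM in the Control samples and at 42.0, 50.1 and 60.6 CPM in the Pea3 TKO samples. Every Pea3 TKO sample lay far below every Control sample, and the log2 fold change of -2.89 (SE 0.19, adjusted p = 2.03e-05) corresponded to a 7.38-fold lower level. Itga4 (chr2:79255426-79333123, plus strand) was at 44.4, 62.6 and 58.8 CPM in Control and at 6.41, 1.33 and 7.22 CPM in Pea3 TKO, without overlap. Its log2 fold change was -3.46 (SE 0.47, adjusted p = 0.00098). On the scale of CPM per kb of exonic length, which allows genes to be compared, Itga9 had the highest level of all alpha subunits in Control (48.9 ± 10.2), above Itga3 (37.2 ± 3.95), and in Pea3 TKO it stood at 6.62 ± 1.21, below Itga3 (36.2 ± 4.44). The ratio of Itga9 to its partner Itgb1 per kb, chosen after the values were seen, went from 0.30 ± 0.04 to 0.0569 ± 0.00816.

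Among the collagen-binding alpha subunits, Itga2 fell and Itga1 was not called. Itga2 encodes the alpha2 subunit of a collagen receptor of epithelia and platelets and was at 11.4, 6.42 and 10.4 CPM in Control and at 0.445, 1.26 and 0.294 CPM in Pea3 TKO. The Pea3 TKO values were all below the lowest Control value, and the log2 fold change was -3.83 (SE 0.60, adjusted p = 0.00204). Itga1, its neighbour on chromosome 13, was at 0, 0.0623 and 0.455 CPM in Control and at 1.14, 2.45 and 0.998 CPM in Pea3 TKO, which did not overlap but gave an adjusted p of 0.0728 (log2 fold change 3.12, SE 1.14). The Control samples held only 0, 1 and 7 counts of Itga1, and with Control replicate 3 left out it was called (adjusted p = 0.0448). Itga10 and Itga11 were too low to be tested, at no more than 1.68 CPM in any sample.

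Itga8 was the only one of the 4 tested alpha subunits of the RGD-binding class, named for the short peptide motif in their ligands, that edgeR called. It encodes the receptor for nephronectin, known from the outgrowth of the ureteric bud, and was at 21.7, 21.5 and 30.8 CPM in Control. In Pea3 TKO it was at 2.41, 2.87 and 0.529 CPM, all far below Control, with a log2 fold change of -3.68 (SE 0.50, adjusted p = 0.000999). Itga5, the fibronectin receptor subunit, was at 51.7, 39.3 and 58.0 CPM in Control and at 39.2, 41.1 and 46.8 CPM in Pea3 TKO. These ranges overlapped, and the log2 fold change was -0.23 (SE 0.17, adjusted p = 0.376). Itgav, which pairs with several beta subunits, was at 49.3, 87.1 and 97.9 CPM in Control and at 67.6, 102 and 79.2 CPM in Pea3 TKO, again with overlap (log2 fold change 0.09, SE 0.25, adjusted p = 0.834). Itga2b, the platelet fibrinogen receptor subunit, was at 0.935 to 3.89 CPM in Control and 4.70 to 7.49 CPM in Pea3 TKO and was not called by edgeR (log2 fold change 1.52, adjusted p = 0.0742). It was called higher by DESeq2 (adjusted p = 0.0364) and by edgeR without Control replicate 1 (adjusted p = 0.0211). The 5 platelet markers summed to at most 2.48 CPM in any sample, and Gp9 and Gp6 had no counts.

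The promoter windows of 4 called members are shown because the lost factors belong to the ETS family, whose binding sites share the core GGAA. The windows end at the gene start and come from RefSeq on GRCm38.p6, read on the strand of the gene from 5′ to 3′, and capitals mark GGAA or its reverse complement TTCC. Itga4 lies at chr2:79255176-79255425 on the plus strand, and Itga2 at chr13:114932101-114932350, Itga8 at chr2:12301945-12302194 and Itgb6 at chr2:60722644-60722853 on the minus strand.
Itga4: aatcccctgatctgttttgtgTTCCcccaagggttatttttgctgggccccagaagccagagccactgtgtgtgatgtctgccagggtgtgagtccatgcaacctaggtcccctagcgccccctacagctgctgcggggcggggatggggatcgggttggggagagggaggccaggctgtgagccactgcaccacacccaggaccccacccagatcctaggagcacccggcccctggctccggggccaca
Itga2: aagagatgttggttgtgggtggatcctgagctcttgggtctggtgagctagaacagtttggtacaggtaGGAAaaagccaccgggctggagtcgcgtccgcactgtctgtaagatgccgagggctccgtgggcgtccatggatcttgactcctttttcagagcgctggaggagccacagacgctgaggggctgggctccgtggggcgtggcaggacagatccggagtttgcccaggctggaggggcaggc
Itga8: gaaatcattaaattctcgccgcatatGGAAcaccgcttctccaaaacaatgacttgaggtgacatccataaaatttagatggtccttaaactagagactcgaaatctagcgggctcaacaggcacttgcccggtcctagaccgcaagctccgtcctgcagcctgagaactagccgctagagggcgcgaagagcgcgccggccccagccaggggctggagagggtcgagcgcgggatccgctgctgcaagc
Itgb6: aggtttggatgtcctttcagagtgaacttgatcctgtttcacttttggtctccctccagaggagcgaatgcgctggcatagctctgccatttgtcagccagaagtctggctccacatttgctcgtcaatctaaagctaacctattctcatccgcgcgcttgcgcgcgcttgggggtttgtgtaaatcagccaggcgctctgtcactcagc
Itga4, Itga2 and Itga8, which fell, each held 1 match of the core, and the printed window of Itgb6, which rose, held 0. A further RefSeq window of Itgb6, 48950 bases from its GENCODE start, held 3 matches. In windows not printed, Lamb2, which rose, and Lamb1, which fell, each held 4. The printed window of Itgb6 is cut to 210 bases, against 250 for the others, and its full 250 bases also held 0. With the windows not printed included, the number of matches does not separate members that rose from members that fell. RefSeq windows were given for 23 of the 37 members, and 16 members had one within 60 bases of the start of the GENCODE gene. In the 250 bases before the RefSeq start, 14 of these 16 held GGAA or TTCC, as did 93.4% of all 32851 windows in the table. The longer AGGAAG or CTTCCT, which contains the core, stood in 6 of the 16 and in 29.5% of all windows. Among the 6 called members with a window that close to the GENCODE start, the counts were 5 for the core and 1 for the longer motif. These matches are counts of letters in a short window and are no evidence of binding.

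The laminin-binding alpha subunits showed no call among 3 tested, by edgeR or DESeq2, and 0 passed an unadjusted p of 0.05. Itga3, a receptor subunit of the epithelial basement membrane, was at 195, 238 and 204 CPM in Control and at 180, 231 and 209 CPM in Pea3 TKO. The ranges overlapped over most of their width, and the log2 fold change was -0.04 (SE 0.13, adjusted p = 0.856). Itga6, which joins Itgb4 in hemidesmosomes and Itgb1 elsewhere, was at 58.1, 61.4 and 95.2 CPM in Control and at 53.2, 70.3 and 68.7 CPM in Pea3 TKO (log2 fold change -0.16, SE 0.21, adjusted p = 0.609). Control replicate 3 was the highest sample and the others overlapped. Itga7, a muscle laminin receptor subunit, was at no more than 3.68 CPM in any sample and was called only with Control replicate 1 left out (adjusted p = 0.0109).

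The leukocyte subunits were low throughout. Itgal, which encodes the alpha subunit of LFA-1, was the only member of this class that was tested among the alpha subunits, and it fell. It was at 4.06, 1.68 and 3.45 CPM in Control and at 0, 0 and 0.411 CPM in Pea3 TKO, without overlap (log2 fold change -4.35, SE 1.17, adjusted p = 0.0234). The Pea3 TKO values rested on 7 counts in replicate 3. Its beta partner Itgb2 was at no more than 1.07 CPM in any sample and was not tested, and the leukocyte marker Ptprc was at no more than 0.52 CPM. The 8 leukocyte markers in the tables summed to 1.06 to 25.0 CPM in Control and 1.65 to 23.6 CPM in Pea3 TKO, and none of the 5 tested was called. The call of Itgal was lost without Control replicate 3 (adjusted p = 0.0713), without Pea3 TKO replicate 1 (0.0624) or 2 (0.0748), and with a covariate for Y-linked expression (log2 fold change -2.83, adjusted p = 0.191). Itgad, Itgae, Itgam and Itgax were not tested, with at most 1.33 CPM in any sample, and Itgb7 was at 0.78 to 6.16 CPM and not called (adjusted p = 0.557).

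The beta subunits moved in both directions. Itgb1, the partner of most alpha subunits, was at 640, 625 and 717 CPM in Control and at 431, 504 and 485 CPM in Pea3 TKO. All Pea3 TKO samples were below all Control samples, and Itgb1 fell by a log2 fold change of -0.48 (SE 0.12, adjusted p = 0.015). Itgb4, the beta subunit of hemidesmosomes, was at 121, 120.5 and 129 CPM in Control and at 190.5, 203 and 172 CPM in Pea3 TKO. It rose without overlap (log2 fold change 0.61, SE 0.11, adjusted p = 0.00437). Both calls were lost with the Y-linked covariate, with log2 fold changes of -0.45 for Itgb1 (adjusted p = 0.158) and 0.48 for Itgb4 (adjusted p = 0.0984), and that of Itgb1 also without Control replicate 3 (adjusted p = 0.0721).

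The beta subunits that pair with alphav were of very unequal level, and only Itgb6 among the 4 tested was called. Itgb6 (chr2:60598292-60722643, minus strand) encodes the epithelial beta6 subunit, which binds latent TGF-beta, and was at 4.40, 3.49 and 2.67 CPM in Control and at 24.6, 23.2 and 19.3 CPM in Pea3 TKO. The 3 Pea3 TKO samples lay close together and far above Control, and the log2 fold change was 2.66 (SE 0.28, adjusted p = 0.000316). Itgb5 was at 335, 313 and 334 CPM in Control and at 299.7, 399.9 and 293 CPM in Pea3 TKO, with a log2 fold change of 0.02 (SE 0.14, adjusted p = 0.951). Pea3 TKO replicate 2 was highest and the other 2 were lowest, so that the Control values lay between them. Itgb8 was at 3.27, 7.91 and 8.52 CPM in Control and at 11.9, 10.6 and 10.5 CPM in Pea3 TKO, which did not overlap but was not called (log2 fold change 0.74, adjusted p = 0.186). Itgb3 was at 0.113 to 3.06 CPM in all samples and was not called.

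**Figure D2:**
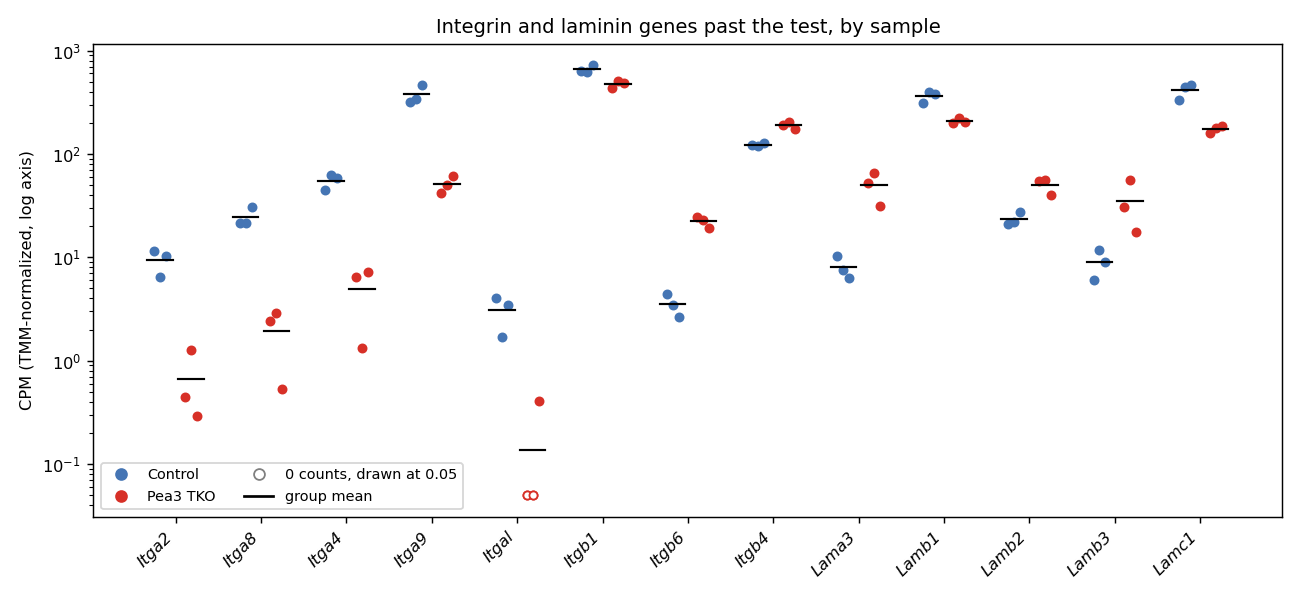
Normalised expression in each sample (CPM, log-scaled y axis) of called integrin and laminin genes (x axis), with blue points for the 3 Control samples, red points for the 3 Pea3 TKO samples, bars for the group means, and open points for 0 counts, drawn at 0.05 CPM. For each gene the 3 Pea3 TKO points lie on one side of the 3 Control points, and the points of Lamb3 and Lama3 spread widest among those that rose.

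Among the laminin alpha chains, Lama3 rose and the other 4 were not called by edgeR. Lama3, whose chain is typical of the basement membrane under stratified epithelia, was at 10.4, 7.54 and 6.31 CPM in Control and at 52.8, 65.0 and 31.2 CPM in Pea3 TKO. The groups were far apart, with Pea3 TKO replicate 3 the lowest of its group, and the log2 fold change was 2.62 (SE 0.30, adjusted p = 0.000474). Lama5, the widespread epithelial alpha chain, was at 113, 186 and 161.5 CPM in Control and at 135, 73.8 and 80.5 CPM in Pea3 TKO. Control replicate 1 lay below Pea3 TKO replicate 1, so the groups overlapped (log2 fold change -0.67, SE 0.25, adjusted p = 0.0741). Lama5 was called lower by DESeq2 (log2 fold change -0.67, adjusted p = 0.0223), and by edgeR without Control replicate 1 (adjusted p = 0.0242) or Pea3 TKO replicate 1 (adjusted p = 0.0168).

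Lama1, an alpha chain of early embryonic basement membranes, was at 59.0, 116.5 and 112 CPM in Control and at 64.7, 58.0 and 75.4 CPM in Pea3 TKO. Here too Control replicate 1 lay within the Pea3 TKO range (log2 fold change -0.54, SE 0.24, adjusted p = 0.128), and without it the adjusted p was 0.00461. Lama4, a chain of endothelial and mesenchymal basement membranes, was at 16.1, 24.4 and 42.9 CPM in Control and at 15.7, 23.4 and 15.5 CPM in Pea3 TKO (log2 fold change -0.61, SE 0.34, adjusted p = 0.222). The groups overlapped, Control replicate 3 was the highest sample, and Lama4 passed the test with Control replicate 1 left out (log2 fold change -0.89, adjusted p = 0.0492). Lama2, the muscle and nerve chain, was at no more than 2.10 CPM in any sample.

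The laminin beta chains were all called, 2 higher and 1 lower. Lamb1, the common beta chain, was at 308, 396 and 384 CPM in Control and at 201, 224 and 203 CPM in Pea3 TKO. It fell without overlap (log2 fold change -0.79, SE 0.13, adjusted p = 0.00225). Lamb2, a chain known from the kidney filter and the neuromuscular junction, was at 21.0, 22.2 and 27.7 CPM in Control and at 55.3, 55.6 and 40.5 CPM in Pea3 TKO. It rose, with every Pea3 TKO sample above every Control sample (log2 fold change 1.09, SE 0.19, adjusted p = 0.0034). Lamb3, a beta chain of stratified epithelia, was at 6.03, 11.8 and 9.10 CPM in Control and at 30.6, 56.6 and 17.5 CPM in Pea3 TKO. It rose without overlap (log2 fold change 1.96, SE 0.41, adjusted p = 0.00854), and the Pea3 TKO samples spread widely. With the Y-linked covariate the log2 fold change of Lamb3 was 0.94 and no longer called (adjusted p = 0.22), and that of Lamb2 was 0.77 (adjusted p = 0.0868).

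Lama3 and Lamb3 ranked alike over the Pea3 TKO samples, highest in replicate 2 and lowest in replicate 3. The mesenchymal Col3a1 and Col1a1 had the same order (54.5, 70.8 and 1.23 CPM for Col1a1). So did the hemidesmosome gene Col17a1 (222, 271 and 145 CPM) and the laminin receptor gene Bcam (531, 585 and 379 CPM). The Y-linked counts set replicate 3 apart from the other 2. The surface epithelium markers had other orders, with Krt15 at 4357, 3462 and 2212 CPM and Krt14 at 433, 651 and 746 CPM in replicates 1 to 3. The part of each in the spread of Lama3 and Lamb3 was not tested.

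Among the gamma chains, Lamc1, which is part of most laminins, was at 334, 445 and 464 CPM in Control and at 161, 176 and 185 CPM in Pea3 TKO. The groups were well apart, and Lamc1 fell with a log2 fold change of -1.25 (SE 0.14, adjusted p = 0.00045). Lamc3 was at no more than 2.16 CPM in any sample and was not called. Lamb1, from the beta chains above, was not called when only the 4 libraries with Y-linked counts were compared, of which 1 was Pea3 TKO, although its log2 fold change was -0.83 there (adjusted p = 0.0636).

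In all, 7 of the 14 called members passed in each of 14 alternative analyses, namely Itga2, Itga4, Itga8, Itga9, Itgb6, Lama3 and Lamc1. In the 4 libraries with Y-linked counts, an alternative chosen after seeing the data, their log2 fold changes were -4.96, -2.92, -5.51, -2.63, 2.46, 1.96 and -1.15 in that order. Each had the sign found with all 6 libraries. With the Y-linked covariate, 2 members were higher and 6 lower, against 865 called genes in all.

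The makeup of each chain class was described as the share of its CPM per kb of exonic length. Among laminin alpha chains Lama3 took 5.27%, 2.25% and 1.96% in the Control samples and 19.8%, 29.4% and 15.2% in Pea3 TKO. Lama5 took 47.3% to 54.2% in Control and 31.5% to 47.9% in Pea3 TKO, with overlap, and Lama1 took 33.2% to 38.6% and 27.0% to 40.9%. Among beta chains Lamb1 took 87.7%, 88.0% and 86.7% in Control and 59.7%, 56.1% and 68.8% in Pea3 TKO. The rest went to Lamb2 (9.33 ± 1.14% to 23.9 ± 2.43%) and Lamb3 (3.20 ± 0.68% to 14.6 ± 6.23%).

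Among all beta subunits of integrins, Itgb1 took 57.9%, 58.7% and 60.6% in Control and 47.1%, 45.8% and 51.5% in Pea3 TKO. Itgb4 took 6.36%, 6.59% and 6.33% in Control and 12.1%, 10.7% and 10.7% in Pea3 TKO. Itgb5 took 32.4% to 34.8% and 35.7% to 41.7%, which did not overlap although its own CPM did. Of the subunits that pair with alphav, Itgb6 took 0.53 ± 0.13% in Control and 3.27 ± 0.55% in Pea3 TKO, and Itgb5 still took 94.6% to 96.3% there. These shares did not overlap between the groups except for Lama5 and Lama1, but 3 samples against 3 cannot give an exact permutation p below 0.1 (two-sided, 0.186 after adjustment over 26 shares).

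**Figure D3:**
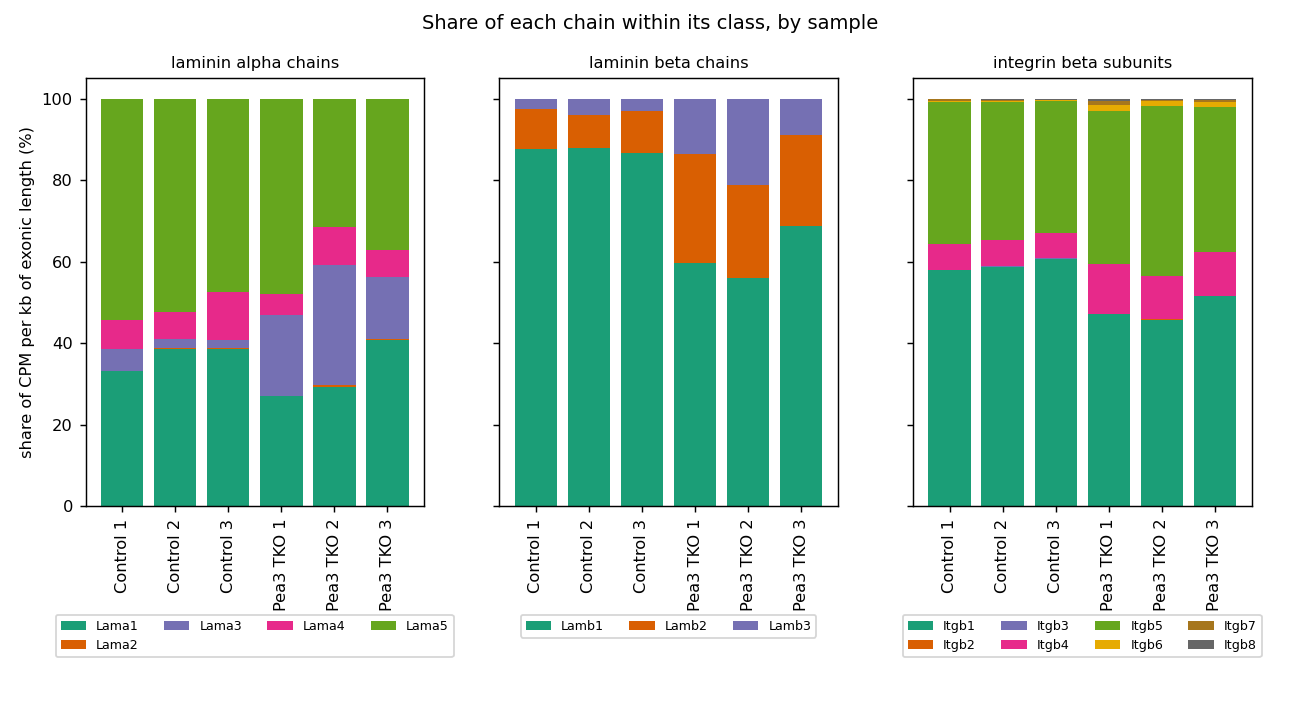
Share of each chain within its class in each of the 6 samples (y axis, percent of CPM per kb of exonic length), for laminin alpha chains, laminin beta chains and integrin beta subunits, as stacked bars. Lama3, Lamb2, Lamb3 and Itgb4 take a wider part of the bar in the 3 Pea3 TKO samples, and Lamb1 and Itgb1 a narrower one.

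Ratios per kb were read for pairs of chains in the same class. The ratio of Lamb1 to Lamb2 was 9.01, 10.9 and 8.49 in Control and 2.23, 2.47 and 3.08 in Pea3 TKO. For the beta subunits, the ratio of Itgb1 to Itgb4 was 9.20 ± 0.34 in Control and 4.33 ± 0.47 in Pea3 TKO. These ratios were chosen after the values were seen and were not tested.

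The other genes of the same matrix and adhesion machinery were read from lists of basement membrane components, integrin ligands, cytoplasmic adaptors, hemidesmosome partners with tetraspanins, and other laminin receptors. Over all these lists, with 12, 21, 30, 8 and 11 genes tested in that order, 20 genes rose and 16 fell. The background for each list is the share over all genes tested, 13.6% higher and 11.3% lower. Of 12 tested basement membrane components other than laminins, 2 (16.7%) rose and 6 (50%) fell (median log2 fold change -0.47). Nid1, a linker between laminin and collagen IV, was at 22.8, 34.6 and 33.3 CPM in Control and at 76.5, 101 and 74.7 CPM in Pea3 TKO (log2 fold change 1.48, adjusted p = 0.000915). Ntn4, a laminin-related netrin, rose from 1.67 ± 0.17 to 10.5 ± 3.44 CPM (log2 fold change 2.65, adjusted p = 0.00175).

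Collagen IV chains, which form the second network of the basement membrane, made up 4 of the 6 that fell. Col4a6 went from 140 ± 33.6 to 57.7 ± 13.5 CPM (adjusted p = 0.0024), Col4a1 from 347.5 ± 65.9 to 177 ± 31.0 CPM (adjusted p = 0.00359) and Col4a2 from 163 ± 31.8 to 89.3 ± 11.9 CPM (adjusted p = 0.0053). The heparan sulphate proteoglycans Agrn and Hspg2 were not called, with log2 fold changes of -0.04 and 0.42.

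Among 21 tested ligands of RGD-binding and alpha4/alpha9 integrins, 5 (23.8%) rose and 6 (28.6%) fell (median log2 fold change 0.60). Tnc, a ligand of Itga9, was at 0, 0.0623 and 0 CPM in Control, a single count, and at 5.21, 16.3 and 18.4 CPM in Pea3 TKO (adjusted p = 0.000223). Mfge8, an RGD ligand of alphav integrins, rose from 472 ± 52.5 to 837.5 ± 97.9 CPM (adjusted p = 0.00222), and Vcam1, a ligand of Itga4 and Itga9, rose from 4.91 ± 2.45 to 23.6 ± 17.4 CPM (adjusted p = 0.0145). Tgfb1, whose latent form is bound by Itgb6, fell from 46.6 ± 10.6 to 12.3 ± 3.77 CPM (adjusted p = 0.00119), Ctgf, a matricellular protein, fell from 35.8 ± 6.87 to 9.70 ± 3.11 CPM (adjusted p = 0.00163), and the microfibril gene Fbn1 fell from 126 ± 49.3 to 41.3 ± 2.57 CPM (adjusted p = 0.00227). Npnt, the ligand of Itga8, was at 131, 91.6 and 135 CPM in Control and at 50.9, 61.1 and 23.9 CPM in Pea3 TKO and fell (log2 fold change -1.40, SE 0.30, adjusted p = 0.0093). It was singled out after its values were seen, as the partner of Itga8. The 5 higher calls of this list became 2 without Control replicate 2 or Pea3 TKO replicate 2, while the 1783 over all genes became 1131 and 1199. Svep1, another ligand of Itga9 and also singled out after its values were seen, was at 6.48, 8.60 and 5.85 CPM in Control and at 0.0635, 1.12 and 1.29 CPM in Pea3 TKO and fell (log2 fold change -3.07, SE 0.77, adjusted p = 0.0177). Thus Npnt fell with its receptor gene Itga8, and of the Itga9 ligands named above Svep1 fell while Tnc and Vcam1 rose. The fibronectin gene Fn1, at 118 ± 27.2 CPM in Control and 149 ± 25.4 CPM in Pea3 TKO, was not called (log2 fold change 0.34, adjusted p = 0.22). Spp1 (adjusted p = 0.387) and Emilin1 (adjusted p = 0.239) of this list were not called either.

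Of 30 tested focal adhesion proteins, which link integrin tails to actin, 6 (20%) rose and 1 (3.33%) fell. In either direction 23.3% were called, near the 25.0% over all genes tested, and the median log2 fold change was 0.02. Parva, part of the complex around integrin-linked kinase, rose from 165 ± 11.1 to 259 ± 22.8 CPM (adjusted p = 0.00386), Zyx from 133 ± 23.2 to 207 ± 27.5 CPM (adjusted p = 0.0151) and Tns1 from 2.96 ± 1.15 to 8.55 ± 1.04 CPM (adjusted p = 0.0225). Fermt1, the epithelial kindlin that activates integrins, was at 118 to 120 CPM in Control and 79.6 to 94.5 CPM in Pea3 TKO and fell (log2 fold change -0.47, adjusted p = 0.0176). The 6 higher calls of this list became 3 without Control replicate 2 or Pea3 TKO replicate 2, 1 without Control replicate 3 and 2 without Pea3 TKO replicate 3. Over all genes, the 1783 higher calls became 1131, 1199, 1149 and 1586 in that order. The lower call of Fermt1 was lost without Control replicate 2, Control replicate 3 or Pea3 TKO replicate 2.

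Of 8 tested hemidesmosome partners and tetraspanins, 6 (75%) rose and 0 fell, with a median log2 fold change of 0.53. Those that rose were the tetraspanins Cd151, Cd9, Cd81, Cd82 and Cd63 and, of the hemidesmosome genes, Col17a1 alone. Cd82, a tetraspanin that associates with integrins, was at 38.7, 23.6 and 23.2 CPM in Control and at 121, 99.4 and 104 CPM in Pea3 TKO (log2 fold change 1.92, adjusted p = 0.000358). Col17a1, the transmembrane collagen of hemidesmosomes, was at 112, 86.9 and 59.2 CPM in Control and at 222, 271 and 145 CPM in Pea3 TKO (log2 fold change 1.30, adjusted p = 0.00668). Neither gene overlapped between the groups. Cd63 rose from 299 ± 21.5 to 440 ± 25.3 CPM (adjusted p = 0.00642). The plakins Dst and Plec, which tie hemidesmosomes to keratin, were not called, with log2 fold changes of 0.49 and 0.02. No member of this list was lower at an unadjusted p under 0.05 or by DESeq2 (0 by each). The 6 higher calls became 3 without Control replicate 3 and 1 with the Y-linked covariate. Over all genes, the 1783 higher calls became 1149 and 538 in these settings.

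Of 11 tested genes for other laminin receptors and the glycosylation of dystroglycan, 1 (9.09%) rose and 3 (27.3%) fell. Bcam, a receptor for the alpha5 chain, rose from 263 ± 41.3 to 498 ± 107 CPM (adjusted p = 0.00573), while the alpha5 chain gene Lama5 itself was not called. Dag1, which encodes dystroglycan, was not called (log2 fold change 0.20, adjusted p = 0.335). Of the enzymes that build its laminin-binding glycan, B3galnt2 fell from 100.1 ± 14.8 to 62.4 ± 5.90 CPM (adjusted p = 0.00945) and Pomgnt1 from 155 ± 14.1 to 111 ± 11.8 CPM (adjusted p = 0.0232). The counts over these lists depended on the samples used. With the Y-linked covariate 5 listed genes were higher and 10 lower, and without Control replicate 2, Control replicate 3 or Pea3 TKO replicate 2 there were 13, 11 or 12 higher. Over all genes the covariate gave 538 higher and 327 lower, and leaving out those samples gave 1131, 1149 or 1199 higher.

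**Figure D4:**
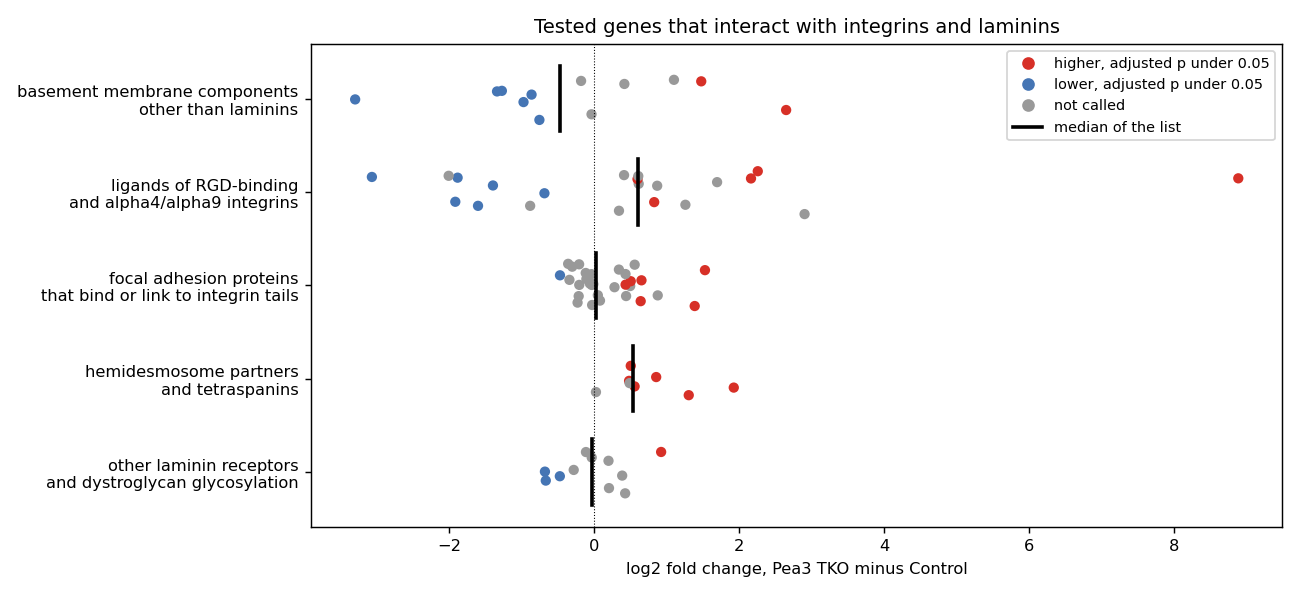
Log2 fold change (Pea3 TKO over Control, x axis, log2 units) of each tested gene in the 5 lists of interacting genes (rows), 1 point per gene, red where higher, blue where lower and grey where not called, with a black bar at the list median. The hemidesmosome partners and tetraspanins lie above 0 with 6 of 8 called, and the highest point among the ligands is Tnc, whose fitted value rests on 1 count in the Control samples.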

How the data were processed

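RNA of laser-captured E14.5 lacrimal gland epithelium was amplified with the Ovation RNA-seq System and sequenced on an Illumina HiSeq2500. The authors deposited 1 table of raw counts per gene symbol for each of the 6 samples, without normalization. The submitters' processing notes name bcl2fastq 2.17, STAR 2.5.2b, featureCounts 1.5.0-p3, DESeq and the mm10 build, and the strand setting and annotation are not given in the sources used here. Amplified reads are not independent molecules, so the limit of 3 counts covers counting error only.

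Genes were kept by filterByExpr, scaled by TMM and tested with the quasi-likelihood test of edgeR 4.0.16 (R 4.3.3, limma 3.58.1) with group as the only term, all 6 samples in the fit and Benjamini-Hochberg adjustment over 13087 genes. The SE of a log2 fold change was taken from its size over the root of the F statistic. The script was tested on simulated counts. Exonic lengths and positions came from GENCODE M21 on GRCm38, matched by symbol, and promoter windows from RefSeq on GRCm38.p6. Shares were compared by exact two-sided permutation.

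Groups came from the sample labels. Full statistics are given for members past the threshold or with a mean of at least 20 CPM, and for up to 3 rising and 3 falling genes with the smallest p of each list. The members and lists were chosen with earlier results of these data known. Alternatives covered DESeq2 1.42.0, RLE and upper-quartile scaling, no filter, a filter of 1 CPM in 3 samples, a replicate block, a Y-linked covariate and leaving out each sample. Protein sequences were not used here, and some genes that the counts include are not reported here.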

Additional observations from a re-analysis of the deposited data

How the results depend on the processing

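The count of members called higher moved most in the 2 analyses that used Y-linked counts. Of the members, 2 were higher with the Y-linked covariate and 2 were higher and 5 lower when only the 4 libraries with Y-linked counts were compared, a choice made after seeing the data in which the lone Pea3 TKO library was assumed to vary like Control. Interacting genes numbered 5 higher and 10 lower with the covariate and 3 higher and 6 lower in those libraries. Over all genes, 865 and 597 were called in these analyses against 3268 with all samples and no covariate. Leaving out 1 sample at a time gave 5 to 7 members higher and 7 to 12 lower, 11 to 21 interacting genes higher and 11 to 15 lower, and 1948 (without Control replicate 3) to 3344 genes in all. DESeq2 called 6 members higher and 10 lower, and over all 14642 genes it tested 2139 higher and 1827 lower. The cause of these differences was not tested. Upper-quartile scaling moved the median log2 fold change of all genes from 0.01 to 0.05 and changed no call of a member.

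The labels do not say whether the replicate numbers pair the samples. Deviations from the group means correlated at 0.144, -0.064 and 0.0454 between samples of the same number. The mean between samples of different number was -0.0208. With 3 samples per group these values cannot decide whether samples were paired. With the replicate number as a block, 5 members were higher and 9 lower, 21 interacting genes were higher and 15 lower, and 3191 genes were called in all.

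The direction of some members that were not called changed. The log2 fold change of Lama2 was -0.11 with the replicate block, -1.75 with the Y-linked covariate and -1.67 in the libraries with Y-linked counts, that of Itgav was -0.014 with the covariate, and that of Itgb5 was -0.16 with the covariate and -0.15 in those libraries. Leaving out 1 sample gave ranges of -2.29 to 0.76 for Lama2, -0.16 to 0.28 for Itgav, -0.14 to 0.095 for Itgb5, -0.12 to 0.049 for Itga3, -0.29 to 0.10 for Itga6, -1.18 to 0.87 for Itgb3, -0.13 to 1.17 for Itgb7 and -0.23 to 1.66 for Lamc3. Differences in share changed sign for low or overlapping chains, with ranges in percentage points of -0.109 to 0.195 for Lama2, -2.54 to 0.25 for Lama4, -1.89 to 2.48 for Itga3, -3.04 to 1.33 for Itga6, -0.0385 to 0.0227 for Itgb2, and for Itgb3 -0.193 to 0.068 among subunits that pair with alphav and -0.0531 to 0.0327 among all beta subunits.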

Other observations

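Itga1 and Itga2, 21 kb apart on chromosome 13, did not share a call. Reads could be shared with an overlapping gene for 4 of the called members named here, since 8.04% of the exonic length of Itga4 overlaps Cerkl on the opposite strand, 7.66% of that of Itgb4 overlaps B230344G16Rik, 5.05% of that of Itga8 overlaps E030013I19Rik and 1.83% of that of Lama3 overlaps Gm29200, and the strand setting of the counting is not known. Itga9, Itgb6, Itga2, Lamc1 and the 3 laminin beta chain genes had no such overlap. The exonic length of Itgam overlaps another gene model by 68.7%, and Itgam was not tested.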
